A study of Homo sapiens with 8 samples.

Results

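BT549 and MDA-MB468 are established lines of human triple-negative breast cancer (TNBC), the class of breast tumours with little estrogen receptor, progesterone receptor and HER2. BT549 is known as a mesenchymal line and MDA-MB468 as a basal epithelial line. The comparison of the lines took in 8 of the 8 libraries of the series, 4 of BT549 and 4 of MDA-MB468, chosen by the cell line in the labels and paired by condition, with no measured value used. Each line was sequenced 1 time in each of 4 conditions: parental cells without drug (parental control), chronic exposure cells without drug (CE control), parental cells after 1 μM Acetalax for 6 hours (parental Acetalax) and CE cells after the same treatment (CE Acetalax). Acetalax (oxyphenisatin acetate) is a compound to which both parental lines are sensitive. The CE cells of each line had been grown in rising Acetalax up to 40 μM with 2 weeks off the drug before use. They are described as resistant clones, and how many clones each line's CE cells hold is not stated, so CE and the history of these particular cells cannot be told apart. All cells were grown in RPMI medium with fetal bovine serum.

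Epithelial cells hold to each other through cadherin, claudin and desmosome junctions and carry keratin filaments. Mesenchymal cells lack most of these, carry vimentin filaments and make collagen matrix. Epithelial-mesenchymal transition (EMT) moves cells from the former state to the latter, and it is driven by transcription factors of the ZEB, SNAIL and TWIST families. The ZEB factors bind E-boxes in the promoters of epithelial genes and repress them, and microRNAs of the miR-200 family bind the ZEB mRNAs and lower them in turn.

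Each library held between 42261122 and 54241728 counts on genes, a 1.28-fold range, and mitochondrial genes took 4% to 7.32% of the counts in BT549 and 7.89% to 10.04% in MDA-MB468. The part of this gap in the results below was not tested. Levels are given as FPKM, the read pairs on a gene corrected for its merged exon length and for library size, always in the order parental control, CE control, parental Acetalax and CE Acetalax. The difference between the lines is a log2 fold change, BT549 minus MDA-MB468. It comes from edgeR's quasi-likelihood test on the counts with the condition as a block. A gene is called at an adjusted p under 0.05. The SE is the size of the log2 fold change over the square root of the test's F value. It thus restates the test, and it is unreliable for genes near 0 counts. The 4 libraries of a line are not repeats of 1 condition, and nothing in the labels marks separate cultures, so the p-values measure how far the line difference varied over these 4 conditions.

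The line was by far the largest source of spread. Of the sum of squares of log2(FPKM + 1) over genes and libraries, 82.1% went with the line, 4.92% with CE against parental cells, 4.89% with Acetalax and 4.57% with the line difference changing between CE and parental cells. For 12316 of the 17807 tested genes with an exon length the line took the largest share of that gene's spread. edgeR called 10167 of the 17811 genes, which is 57.1%, of which 5008 (28.1%) were higher in BT549 and 5159 (29%) higher in MDA-MB468, so a call alone says little about a gene here. The libraries of the lines did not overlap for 54% of the genes tested. A narrower group of large stable genes was therefore taken, those called and at least 2 apart on the log2(FPKM + 1) scale in the same direction in each of the 4 conditions. There were 785 of these (4.41%), 262 higher in BT549 (1.47%) and 523 higher in MDA-MB468 (2.94%). Their number rests on the scale, with 2076 at a pseudocount of 0.1 and 1546 from CPM, which leaves out the length. Just inside the limit lay TTC7A, with a smallest difference of 2.00 over the conditions, and just outside it CRIP2, with 1.996. Across genes, the line differences of any 2 conditions had Pearson correlations from 0.84 (parental control and CE Acetalax) to 0.94 (parental control and parental Acetalax), given as a description over 17807 genes whose 4 pairs of libraries come from the same lines.

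The receptors that define TNBC were read first, as markers of that class. ESR1, the estrogen receptor, was at 0.00172, 0.0134, 0 and 0.00288 FPKM in BT549 and 0.307, 0.373, 0.255 and 0.375 in MDA-MB468. PGR, the progesterone receptor, was at 0, 0.0427, 0 and 0.00538 in BT549 and at 0 in all 4 MDA-MB468 libraries. ERBB2, which encodes HER2, lay between 3.99 and 9.22 in the 8 libraries, with a log2 fold change of 0.01 ± 0.17 (SE), edgeR adjusted p = 0.98. ESR1 and PGR were thus under 1 FPKM in every library and ERBB2 did not differ beyond its error. At these low levels ESR1 was still higher in every MDA-MB468 library than in any of BT549. TP63, a factor of basal epithelium, was under 1 FPKM in all 8 libraries, so this basal marker was near absent from both lines, while the basal keratins KRT5 and KRT17 were high in MDA-MB468.

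The miR-200 family sits at a pair of loci, and the locus on chromosome 1 had reads in every MDA-MB468 library and 1 read in all of BT549. Its mature microRNAs are shown because 2 seeds, the bases with which a microRNA finds its targets, cover the whole family. Capitals mark the seed (bases 2 to 8), and the sequences are from RefSeq, as RNA, 5′ to 3′.
hsa-miR-200b-3p: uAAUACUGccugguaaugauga
hsa-miR-429: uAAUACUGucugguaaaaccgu
hsa-miR-200c-3p: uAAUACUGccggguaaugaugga
hsa-miR-200a-3p: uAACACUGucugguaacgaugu
hsa-miR-141-3p: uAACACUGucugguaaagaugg
The loci of miR-200b, miR-200a and miR-429 lie close together in hg19 at chr1:1102484-1102578, chr1:1103243-1103332 and chr1:1104385-1104467. These polyA libraries cannot count mature microRNAs, so reads on a hairpin come from its long primary transcript. MIR429 had 29, 22, 75 and 53 counts in MDA-MB468 and 0, 0, 1 and 0 in BT549. MIR200B had 21, 14, 32 and 16 counts in MDA-MB468 and none in BT549, at least 27.9-fold higher in MDA-MB468 when BT549 is set to the floor of 3 counts over its 4 libraries. MIR200A had 14, 15, 37 and 28 counts in MDA-MB468 and likewise none in BT549, at least 31.6-fold. No library of BT549 reached the lowest MDA-MB468 library at any of these 3 hairpins. MIR200C and MIR141 on chromosome 12 had at most 3 counts in any library and were not tested. MIR205HG, the host transcript of another epithelial microRNA, was at 0, 0, 0.00651 and 0 FPKM in BT549 and 24.4, 51.9, 23 and 42.6 in MDA-MB468. These microRNA loci were picked after their values were seen. Reads of genes on the opposite strand of these hairpins cannot be told apart from theirs, because the strand setting of the counting is not stated.

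Of 27 genes for epithelial junctions, all tested, 22 were higher in MDA-MB468 (81.5%, against 29% of all genes). In BT549 2 were higher (7.41%, against 28.1%). The median log2 fold change was -4.83 against 0.01 for all genes tested, and 16 members were large and stable. CDH1, or E-cadherin, the main adhesion molecule of epithelia, was at 0.0389, 0.158, 0.0416 and 0.0586 FPKM in BT549 and 19.6, 25.5, 21.8 and 24.2 in MDA-MB468. The lowest MDA-MB468 library was far above the highest BT549 library, and the log2 fold change was -8.21 ± 0.39 (SE), edgeR adjusted p = 3.4e-05. DSP, the desmoplakin that ties desmosomes to keratin, was at 0.0226, 0.0921, 0.0219 and 0.0421 in BT549 and 73.9, 65.5, 71.1 and 53.4 in MDA-MB468 (log2 fold change -10.48, SE 0.57, edgeR adjusted p = 5e-05). CLDN7, a claudin of tight junctions, was at 0.351, 1.04, 0.332 and 0.603 in BT549 and 73.6, 70.3, 86.7 and 77.7 in MDA-MB468 (log2 fold change -6.98, SE 0.43, edgeR adjusted p = 7.2e-05). CRB3, which sets apical polarity, was at 0.0296, 0.0346, 0.0144 and 0.0124 in BT549 and 12.3, 14.2, 17 and 15.8 in MDA-MB468 (log2 fold change -9.05, SE 0.37, edgeR adjusted p = 2.3e-05). In each of these 3 genes too the lines lay apart in every library. The exceptions higher in BT549 were PPL, a desmosome plaque protein under 1 FPKM in all libraries (log2 fold change 7.27), and CLDN1, at 30.1, 7.3, 38 and 42 in BT549 and 5.18, 7.02, 19.1 and 21 in MDA-MB468, where the lines overlapped. The call of CLDN1 was lost in the fit without the block, in the control libraries and when either Acetalax pair was left out. CDH3, or P-cadherin, did not pass the test (log2 fold change 0.26, SE 0.35, edgeR adjusted p = 0.54).

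Keratins gave 10 large stable members, all higher in MDA-MB468. Of 17 listed, 16 were tested, and 15 were higher in MDA-MB468 (93.8%, against 29% of all genes). None was higher in BT549 (against 28.1% of all genes), and the median log2 fold change was -8.81. KRT5, the basal keratin, was at 0.0172, 0.00446, 0 and 0.0191 FPKM in BT549 and 248, 226, 442 and 391 in MDA-MB468 (log2 fold change -14.68, SE 0.57, edgeR adjusted p = 2e-05). KRT17, also basal, was at 0.0553, 0.0738, 0.0767 and 0.0924 in BT549 and 125, 90.2, 406 and 376 in MDA-MB468 (log2 fold change -11.27, SE 0.45, edgeR adjusted p = 2.2e-05). KRT14, the usual partner of KRT5, was far lower than KRT5 within MDA-MB468 and differed there between parental and CE cells, at 25.1, 2.26, 28.6 and 2.61, against 0.262, 0.00818, 0.0816 and 0.0175 in BT549. All 3 basal keratins were higher in every MDA-MB468 library than in any of BT549. The keratins of simple epithelium were present as well. KRT19 was at 0.273, 1.78, 0.157 and 0.618 in BT549 and 1024, 1164, 653 and 815 in MDA-MB468 (log2 fold change -10.61, SE 0.68, edgeR adjusted p = 8.6e-05), the highest of the keratins named here in each MDA-MB468 library. KRT8 was at 0.182, 5, 0.124 and 3.23 in BT549 and 331, 468, 341 and 586 in MDA-MB468, and KRT18, its partner, at 2.17, 15.6, 1.36 and 8.94 in BT549 and 182, 270.5, 192 and 385 in MDA-MB468. In BT549 both KRT8 and KRT18 were higher in the CE than in the parental libraries, yet they stayed below every MDA-MB468 library. Keratin genes include close copies (KRT14, KRT16 and KRT17 among them), so single members are less certain than the list.

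The factors that keep cells epithelial followed the same pattern, with 16 of 20 tested higher in MDA-MB468 (80%, against 29% of all genes). Only 1 was higher in BT549 (5%, against 28.1%). The median log2 fold change was -6.83, or -6.40 with members at 0 in a line set to their bound. ESRP1 and ESRP2 are splicing factors of epithelial exons. ESRP1 was at 0.068, 0.0189, 0.0377 and 0.0122 FPKM in BT549 and 38.9, 38.4, 30.2 and 30.6 in MDA-MB468 (log2 fold change -9.90, SE 0.38, edgeR adjusted p = 2e-05). GRHL2, a grainyhead factor that sustains E-cadherin, was at 0.0117, 0.0975, 0.0038 and 0.00653 in BT549 and 19.2, 19.7, 16.2 and 14.4 in MDA-MB468 (log2 fold change -9.33, SE 0.72, edgeR adjusted p = 0.00016). ELF3, an epithelial ETS factor, was at 0.0296, 0.103, 0.0064 and 0.0055 in BT549 and 41.4, 41.6, 18.7 and 14.6 in MDA-MB468 (log2 fold change -9.79, SE 0.54, edgeR adjusted p = 5.1e-05). For these 3 factors no BT549 library passed 0.2 FPKM. FOXA1, a factor of luminal breast cells, was at 0.0214, 0.0627, 0.026 and 0.00896 in BT549 and 18.4, 25.7, 6.45 and 10.6 in MDA-MB468, with the Acetalax libraries of MDA-MB468 lowest in that line. The member higher in BT549 was FOXC1, a factor linked to basal-like breast cancer, at 40.9, 17.2, 53.9 and 31.1 in BT549 and 30.2, 12.7, 31.5 and 10.5 in MDA-MB468 with overlapping libraries; its call was lost without the block and in the control libraries alone.

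Surface and basement membrane genes of epithelia gave 17 of 20 tested members higher in MDA-MB468 (85%, against 29% of all genes). In BT549 1 was higher (5%, against 28.1%). There were 14 large and stable members, and the median log2 fold change was -9.05. EPCAM, the epithelial cell adhesion molecule, was at 0.0779, 0.0152, 0.0378 and 0.057 FPKM in BT549 and 168, 169, 180.4 and 174 in MDA-MB468 (log2 fold change -11.69, SE 0.40, edgeR adjusted p = 1.5e-05). Its lowest MDA-MB468 library was far above every BT549 library. The proteases ST14 (matriptase) and PRSS8 (prostasin) had log2 fold changes of -9.37 and -10.38. MUC1, a membrane mucin, did not pass the test (log2 fold change -0.71, SE 0.30, edgeR adjusted p = 0.084), and LAMA3, a laminin chain of basement membrane, was higher in BT549 (log2 fold change 2.35, SE 0.20, edgeR adjusted p = 0.00024).

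**Figure D1:**
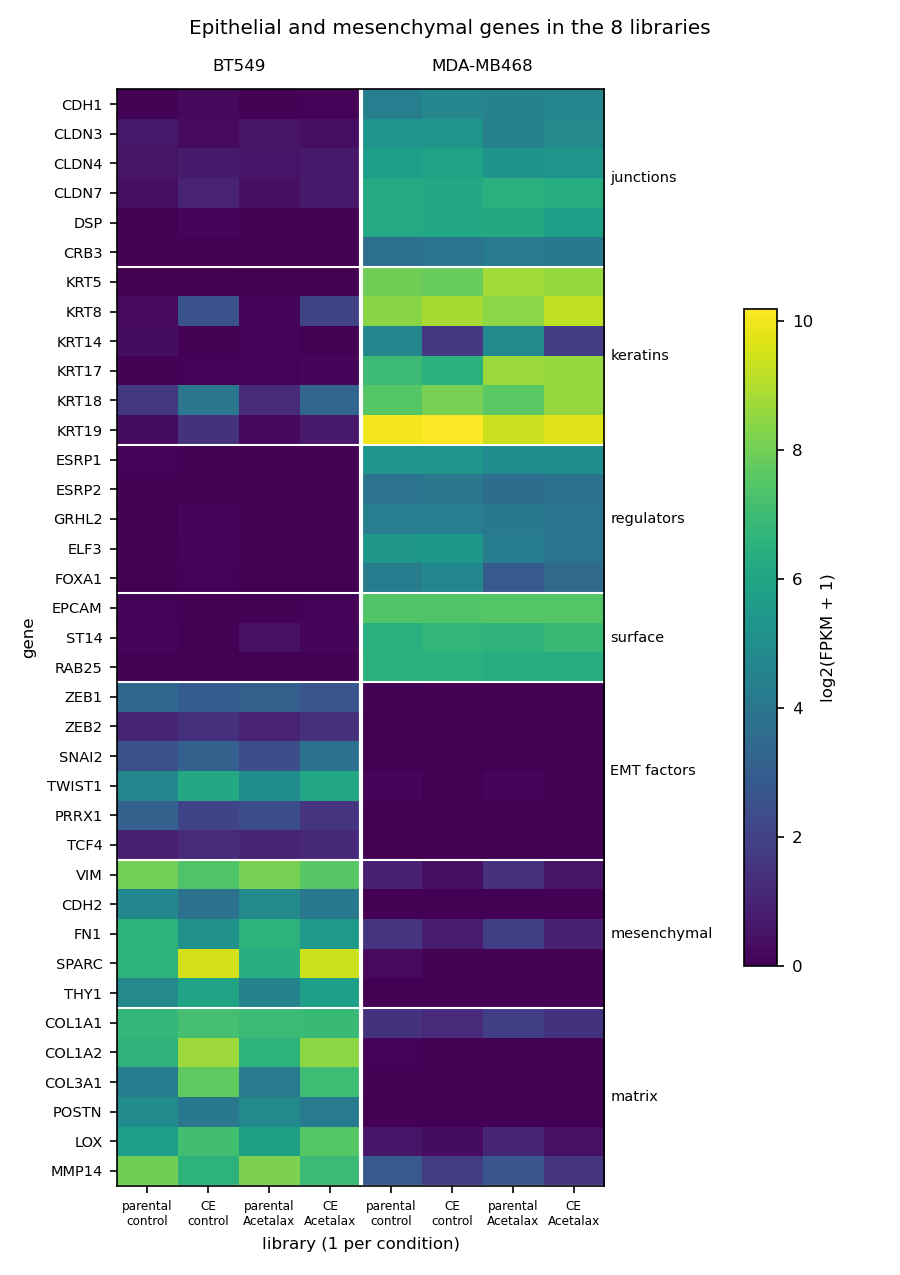
Heat map of log2(FPKM + 1), from dark (0) to bright, for 37 epithelial, EMT, mesenchymal and matrix genes (rows) in the 8 libraries (columns), 4 of BT549 at left and 4 of MDA-MB468 at right. Most rows of the upper blocks are brighter in MDA-MB468 and most rows of the lower blocks brighter in BT549 in all 4 conditions. ZEB2 is dim in BT549 too, and KRT14 is dim in the CE libraries of MDA-MB468. Within BT549, KRT8 and KRT18 are brighter in the CE libraries.

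The E-box bound by ZEB and SNAIL factors was looked up in RefSeq promoter windows (GRCh38.p14, 250 bases before to 50 after a start), as CAGGTG on either strand, which reads CACCTG on the other. It was present in 20.6% of all 35116 windows. Among the epithelial lists it was in 10 of 22 windows of 17 junction genes (45.5%), 15 of 24 windows of 13 surface genes (62.5%) and 4 of 21 windows of 12 regulators (19%). Only 2 keratin windows could be searched, of which 1 held it. Members of these lists without a window, CDH1 and EPCAM among them, were not searched for the E-box. In the lists higher in BT549 it was in 2 of 27 windows of EMT factors (7.41%), 1 of 26 windows of mesenchymal markers (3.85%), 4 of 21 windows of collagens (19%) and 4 of 25 windows of matrix genes (16%). Lists of other kinds also held it at high shares, with 62.5% of 8 windows of EGFR ligands, 32.1% of 28 windows of TRP channels and 31.2% of 16 windows of glutathione transferases, so a high share was not limited to epithelial lists. Windows of 1 gene overlap or share sequence, base composition differs between lists, and a match is not a bound site. Of the members of the 4 epithelial lists with a match, the 5 with the largest smallest difference are shown, each with the match nearest the start and 12 bases on each side; they were chosen after their values were seen, and further matches are not shown. They are read 5′ to 3′ on the strand of the gene, with that E-box in capitals. The stretch of CLDN7 holds another match on the other strand, which is nearer the start and is left in lower case.
KRT5, chr12:52520507-52520536, minus strand: cacaccactgtgCAGGTGtgaccggtgagc
RAB25, chr1:156061107-156061136, plus strand: catctctccaccCACCTGggccccaggtct
DSP, chr6:7541574-7541603, plus strand: gaagaaaccggcCAGGTGtggcctaggcgc
SPINT1, chr15:40844439-40844468, plus strand: tcccgggctgatCAGGTGtgtctcctcctc
CLDN7, chr17:7262481-7262510, minus strand: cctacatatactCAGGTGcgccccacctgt
These positions are in GRCh38, while the counts were made on hg19. RAB25, a small GTPase of apical recycling, and SPINT1, an inhibitor of matriptase, had log2 fold changes of -11.48 and -10.82.

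The transcription factors of EMT were higher in BT549 in 10 of 13 tested members (76.9%, against 28.1% of all genes). In MDA-MB468 2 were higher (15.4%, against 29%), and the median log2 fold change was 3.18. ZEB1 was at 9.96, 6.76, 7.44 and 5.53 FPKM in BT549 and 0.0357, 0.0262, 0.0167 and 0.0267 in MDA-MB468 (log2 fold change 8.31, SE 0.24, edgeR adjusted p = 1.4e-05). ZEB2 was at 1.08, 1.68, 1.05 and 1.6 in BT549 and had no count in any MDA-MB468 library, at least 2278-fold higher in BT549 against the floor of 3 counts over the 4 libraries. SNAI2, or SLUG, was at 4.69, 7.83, 4.5 and 13.2 against no count, at least 1609.8-fold. The lines thus lay fully apart for ZEB1, ZEB2 and SNAI2 in every condition. TWIST1 was at 26, 70.2, 29.7 and 65.7 in BT549 and 0.113, 0.0113, 0.144 and 0.0211 in MDA-MB468 (log2 fold change 9.37, SE 0.85, edgeR adjusted p = 0.00029), and PRRX1, a homeobox factor of mesenchyme, at 8.11, 3.18, 4.48 and 1.97 against no count, at least 2206-fold. SNAI1, or SNAIL, differed far less, at 1.9, 5.17, 2.59 and 2.42 in BT549 and 0.675, 1.21, 1.15 and 0.876 in MDA-MB468 (log2 fold change 1.74, SE 0.26, edgeR adjusted p = 0.0021). The 2 members that went the other way were SNAI3, under 1 FPKM in all libraries (log2 fold change -4.36), and KLF8, at 0, 0.00579, 0 and 0.00155 in BT549 and 3.74, 6.13, 1.91 and 3.18 in MDA-MB468 (log2 fold change -10.65, SE 0.49, edgeR adjusted p = 3.2e-05).

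Mesenchymal markers were higher in BT549 in 17 of 22 tested members (77.3%, against 28.1% of all genes). In MDA-MB468 2 were higher (9.09%, against 29%). The median was 4.77, with 14 large stable members in BT549. VIM, the vimentin filament, was at 256, 167, 273 and 186 FPKM in BT549 and 0.894, 0.341, 1.73 and 0.455 in MDA-MB468 (log2 fold change 8.44, SE 0.41, edgeR adjusted p = 3.5e-05). CDH2, or N-cadherin, was at 26, 12.8, 28.2 and 15.8 in BT549 and had no count in MDA-MB468, at least 10813-fold higher. FN1, or fibronectin, was at 94.6, 34.4, 94.8 and 43.4 in BT549 and 1.99, 0.776, 2.7 and 0.855 in MDA-MB468 (log2 fold change 5.65, SE 0.19, edgeR adjusted p = 1.5e-05). For these 3 markers the lowest BT549 library stood above every MDA-MB468 library. SPARC, a matrix glycoprotein, was at 94.6, 743, 85.3 and 672 in BT549, with the CE libraries highest, and 0.195, 0.044, 0.0266 and 0.0499 in MDA-MB468 (log2 fold change 12.22, SE 1.22, edgeR adjusted p = 0.00042). THY1, a surface marker of fibroblasts, had a log2 fold change of 10.91 ± 0.35 (SE), edgeR adjusted p = 1.4e-05. S100A4, often used as a fibroblast marker, went against the list, at 9.81, 15.7, 7.56 and 10.3 in BT549 and 171, 143, 139 and 125 in MDA-MB468 (log2 fold change -3.59, SE 0.25, edgeR adjusted p = 0.00011), as did ENG, or endoglin (log2 fold change -2.03, SE 0.30, edgeR adjusted p = 0.0019). CD44, a hyaluronan receptor often read as a mesenchymal marker, was high in both lines and not called (log2 fold change -0.37, SE 0.23, edgeR adjusted p = 0.21).

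Collagens gave 16 of 24 tested members higher in BT549 (66.7%, against 28.1% of all genes) and 3 higher in MDA-MB468 (12.5%, against 29%). Their median was 4.20. Other matrix and remodelling genes gave 18 of 24 (75%) and 2 (8.33%), with a median of 3.67. COL1A1 and COL1A2 form type I collagen, and COL1A2 was at 96.7, 417, 95.6 and 347 FPKM in BT549 and 0.078, 0.00629, 0.0019 and 0.0428 in MDA-MB468 (log2 fold change 13.20). COL3A1 was at 18.7, 205, 16.9 and 128 in BT549 and 0.0335, 0.0067, 0 and 0.0218 in MDA-MB468 (log2 fold change 12.28, SE 1.03, edgeR adjusted p = 0.00022). Both were higher in the CE than in the parental libraries of BT549. POSTN, or periostin, was at 29.4, 16.1, 27.8 and 18 in BT549 and had no count in MDA-MB468, at least 7649-fold higher. COL1A2, COL3A1 and POSTN did not overlap between the lines, and neither did 54% of all genes tested. Of the collagens 17 lay apart with BT549 higher and 3 with MDA-MB468 higher. For the matrix list these counts were 17 and 2, so some members of both lists overlapped. MMP14, a membrane-bound collagenase, was at 252, 94.1, 288 and 122 in BT549 and 6.14, 2.42, 5.44 and 1.93 in MDA-MB468 (log2 fold change 5.77, SE 0.22, edgeR adjusted p = 1.9e-05), higher in parental than in CE cells in both lines. LOX, which cross-links collagen, was at 53.4, 138, 54.7 and 182 in BT549 and 0.54, 0.267, 1.05 and 0.372 in MDA-MB468 (log2 fold change 7.74, SE 0.83, edgeR adjusted p = 0.00054).

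The protein-coding genes with the largest smallest difference in each direction were taken, 15 per line. They included BASP1, FSTL1, VIM, COL1A2, GJA1, RAB32, CD70, EMP3, SPARC, RAMP1, FKBP10, FBLN2, SPON2, SPOCK1 and CST3 in BT549, and S100A9, KLK5, KRT19, S100A16, S100A14, SFN, KRT5, CASP14, S100A7, EPCAM, VGLL1, AZGP1, S100A8 and RARRES1 in MDA-MB468. All were taken for the size of these values, so their calls are a description. BASP1, a membrane protein best known from nerve endings, was at 202, 223, 211 and 237 FPKM in BT549 and 0.0479, 0, 0 and 0.0196 in MDA-MB468. GJA1, the gap junction protein connexin 43, was at 149, 89.5, 305 and 129.9 in BT549 and 0, 0, 0 and 0.0124 in MDA-MB468. RAB32, a small GTPase of lysosome-related organelles, was at 137, 82.5, 207 and 168 in BT549 with no count in MDA-MB468, at least 9785-fold higher. CD70, a ligand of the TNF family, was at 88.4, 94.1, 140.0 and 174 in BT549 and 0.0806, 0.0148, 0.0269 and 0.11 in MDA-MB468. The lines were separate in all of these, and in most MDA-MB468 was at or near 0. FSTL1, a secreted glycoprotein of mesenchyme, varied little, at 213, 252, 195 and 207 in BT549 and 0.291, 0.308, 0.295 and 0.436 in MDA-MB468.

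In MDA-MB468, 5 of the 15 were S100 genes, small calcium-binding proteins. S100A9, which with S100A8 forms calprotectin, was at 1474, 1553, 1070.1 and 1198 FPKM in MDA-MB468 and 0.0413, 0.193, 0.0401 and 0.311 in BT549, the widest stable gap of the protein-coding genes by this measure. S100A8 was at 210.1, 301, 146 and 214 in MDA-MB468 and 0.0531, 0.248, 0.0516 and 0.178 in BT549. S100A16 and S100A14 had the same form, with 334, 389.9, 359.5 and 465 and 421, 557, 389 and 557 in MDA-MB468 and no library of BT549 above 0.3. All 4 of these S100 genes were over 100 FPKM in each MDA-MB468 library. KLK5, a kallikrein protease of epidermis, was at 503, 649, 481 and 722 in MDA-MB468 and 0.0143, 0.0335, 0 and 0.0478 in BT549. SFN, the 14-3-3 sigma protein of epithelia, was at 253, 275, 559 and 491 in MDA-MB468 and 0.0905, 0.141, 0.141 and 0.121 in BT549. VGLL1, a partner of TEAD factors, was at 179, 156, 199 and 145 in MDA-MB468, and 3 BT549 libraries had no count.

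**Figure D2:**
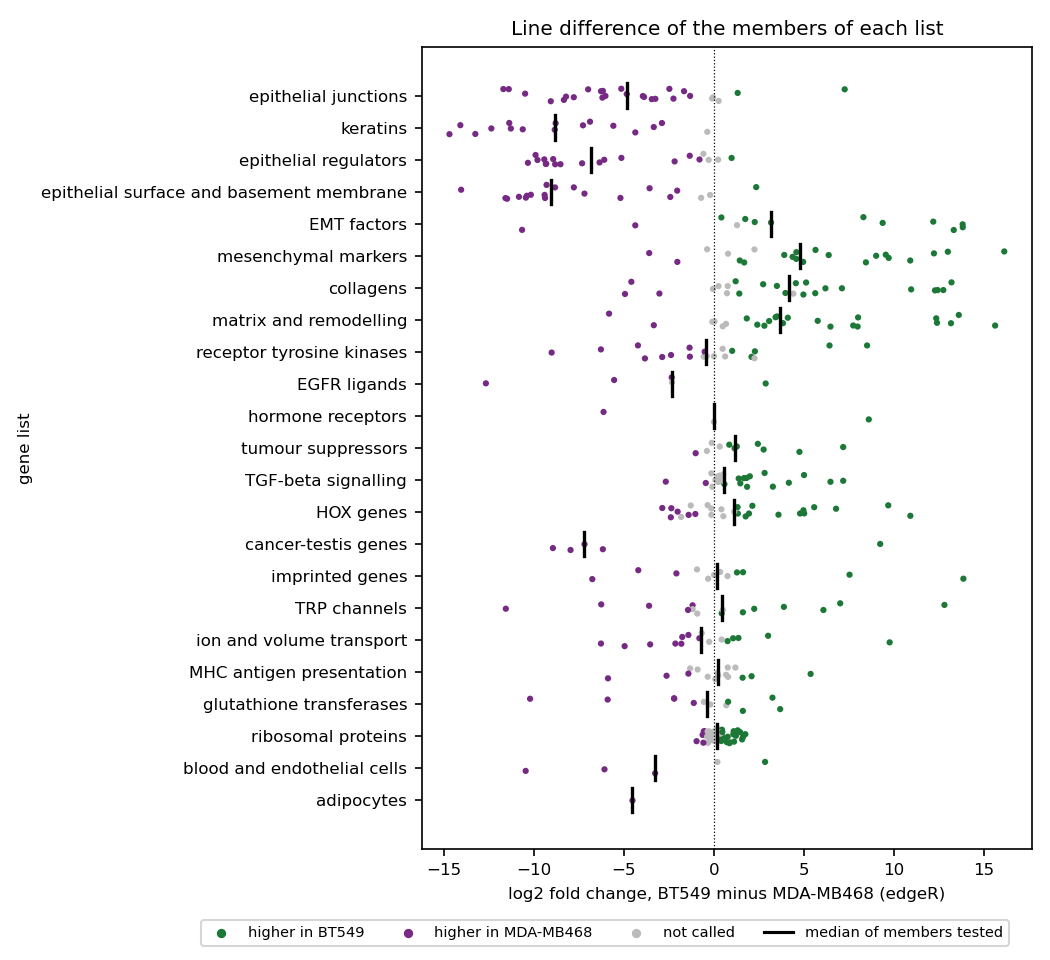
Log2 fold change, BT549 minus MDA-MB468, of each tested member of the 23 gene lists (points, jittered in height), green where higher in BT549, purple where higher in MDA-MB468 and grey where not called; black bars are list medians. The 4 epithelial lists lie to the left with medians from -9.05 to -4.83 and the 4 mesenchymal lists to the right with medians from 3.18 to 4.77, while ribosomal proteins stay near 0.

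Of 20 tested receptor tyrosine kinases, 5 were higher in BT549 (25%, against 28.1% of all genes) and 9 higher in MDA-MB468 (45%, against 29%; median -0.45, which turned to 0.20 in the CE libraries alone). EGFR, the epidermal growth factor receptor, was at 19.7, 15.7, 23.7 and 27.6 FPKM in BT549 and 235, 206, 657 and 436 in MDA-MB468 (log2 fold change -3.83, SE 0.25, edgeR adjusted p = 9.8e-05). AXL, a receptor linked to mesenchymal tumours, was at 49.1, 48.8, 40.9 and 41.5 in BT549 and 0.24, 0.424, 1.38 and 0.827 in MDA-MB468 (log2 fold change 6.42, SE 0.54, edgeR adjusted p = 0.00023). DDR1 and DDR2, the collagen receptors of epithelial and mesenchymal cells, went opposite ways. DDR1 was at 2.33, 3.14, 2.1 and 2.8 in BT549 and 56.4, 46.3, 68.5 and 47.9 in MDA-MB468 (log2 fold change -4.21, SE 0.27, edgeR adjusted p = 8.6e-05), and DDR2 at 23.6, 26.6, 19.7 and 23.1 in BT549 and 0.0723, 0.0633, 0.126 and 0.0417 in MDA-MB468 (log2 fold change 8.51, SE 0.42, edgeR adjusted p = 3.8e-05). None of these 4 receptors overlapped between the lines. ERBB3, the partner of HER2, was higher in MDA-MB468 (log2 fold change -6.27, SE 0.29, edgeR adjusted p = 3.3e-05), as was EPHB2 (log2 fold change -9.01, SE 0.28, edgeR adjusted p = 1.4e-05). Of the 5 tested ligands of EGFR, TGFA was at 7.11, 9.09, 15.8 and 15.6 in MDA-MB468 and at or near 0 in BT549 (log2 fold change -12.66, SE 0.53, edgeR adjusted p = 2.4e-05), while HBEGF was higher in BT549, at 11.8, 5.04, 35.7 and 68.3 in BT549 and 1.59, 2.17, 6.76 and 3.4 in MDA-MB468 (log2 fold change 2.88, SE 0.53, edgeR adjusted p = 0.0045) with overlapping libraries.

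Tumour suppressors were higher in BT549 in 7 of 11 members (63.6%, against 28.1% of all genes). Only 1 was higher in MDA-MB468 (9.09%, against 29%), and the median was 1.15. SMAD4, the shared mediator of TGF-beta and BMP signals, was at 1.88, 2.22, 1.97 and 2.24 FPKM in BT549 and 0.0168, 0.0208, 0.0116 and 0.0161 in MDA-MB468 (log2 fold change 7.18, SE 0.23, edgeR adjusted p = 1.4e-05). RB1, the retinoblastoma protein, was at 4.36, 6.44, 4.78 and 6.14 in BT549 and 0.227, 0.222, 0.23 and 0.222 in MDA-MB468 (log2 fold change 4.75, SE 0.23, edgeR adjusted p = 3.7e-05). Both genes lay apart between the lines by far more than they varied within a line. CDKN2A, which encodes p16, was at 122, 122, 127 and 126 in BT549 and 21.8, 20.2, 20.8 and 20.4 in MDA-MB468 (log2 fold change 2.77, SE 0.14, edgeR adjusted p = 3.7e-05). The 4 levels of each line were close for CDKN2A, whose lines did not overlap.

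Cancer lines gain and lose stretches of chromosome, so the genes within 1 Mb were read too. Their counts are to be read beside all genes tested, of which 28.1% were called higher in BT549 and 29% higher in MDA-MB468. At EGFR (hg19 chr7:55086714-55324313), 13 of 15 tested neighbours were higher in MDA-MB468 and none in BT549, with a median log2 fold change of -2.89. Among them SEC61G, a subunit of the protein translocation channel, was at 37.8, 69.4, 42.6 and 74 FPKM in BT549 and 829, 843, 825 and 877 in MDA-MB468 (log2 fold change -3.79, SE 0.25, edgeR adjusted p = 9.5e-05), and LANCL2 at 5.13, 4.97, 5.56 and 4.71 in BT549 and 189, 164, 134 and 161 in MDA-MB468 (log2 fold change -4.80, SE 0.17, edgeR adjusted p = 1.6e-05). At SMAD4 (chr18:48494410-48611415) the difference did not extend in this way. There 3 of 9 neighbours were higher in BT549 and 2 higher in MDA-MB468, both near the shares of all genes, with a median of -0.10. ELAC1, whose span overlaps that of SMAD4 in the annotation, so that its reads are uncertain, had a log2 fold change of 2.16 ± 0.31 (SE), edgeR adjusted p = 0.0016, and ME2, a mitochondrial malic enzyme, -0.10 ± 0.13 (SE), edgeR adjusted p = 0.52. At RB1 (chr13:48877887-49056122), 10 of 14 neighbours were higher in BT549 with a median of 1.36, among them RCBTB2 (log2 fold change 5.45, SE 0.32, edgeR adjusted p = 6.3e-05) and LPAR6, a receptor gene that lies within the span of RB1, at 4.78, 8.07, 3.83 and 2.67 in BT549 and without a count in MDA-MB468, at least 1353-fold. At CDKN2A (chr9:21967751-21995300), 14 of 15 neighbours were higher in BT549 with a median of 1.98, including CDKN2B (log2 fold change 2.44, SE 0.41, edgeR adjusted p = 0.0031) and MTAP (log2 fold change 1.27, SE 0.16, edgeR adjusted p = 0.00088). Near MYC, itself higher in BT549 (log2 fold change 0.88, SE 0.16, edgeR adjusted p = 0.0043) with overlapping libraries, 4 genes were tested, 1 higher in BT549 and 3 in MDA-MB468. DNA copy number was not measured, and its part in these values was not tested. Whole chromosomes differed as well: the median log2 fold change was 1.07 on chromosome 8, where 61.4% of 634 genes were called higher in BT549 against 28.1% of all genes, 0.57 on chromosome 13, -0.71 on chromosome 21, where 52.3% of 193 genes were called higher in MDA-MB468 against 29%, and -0.61 on chromosome 2.

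**Figure D3:**
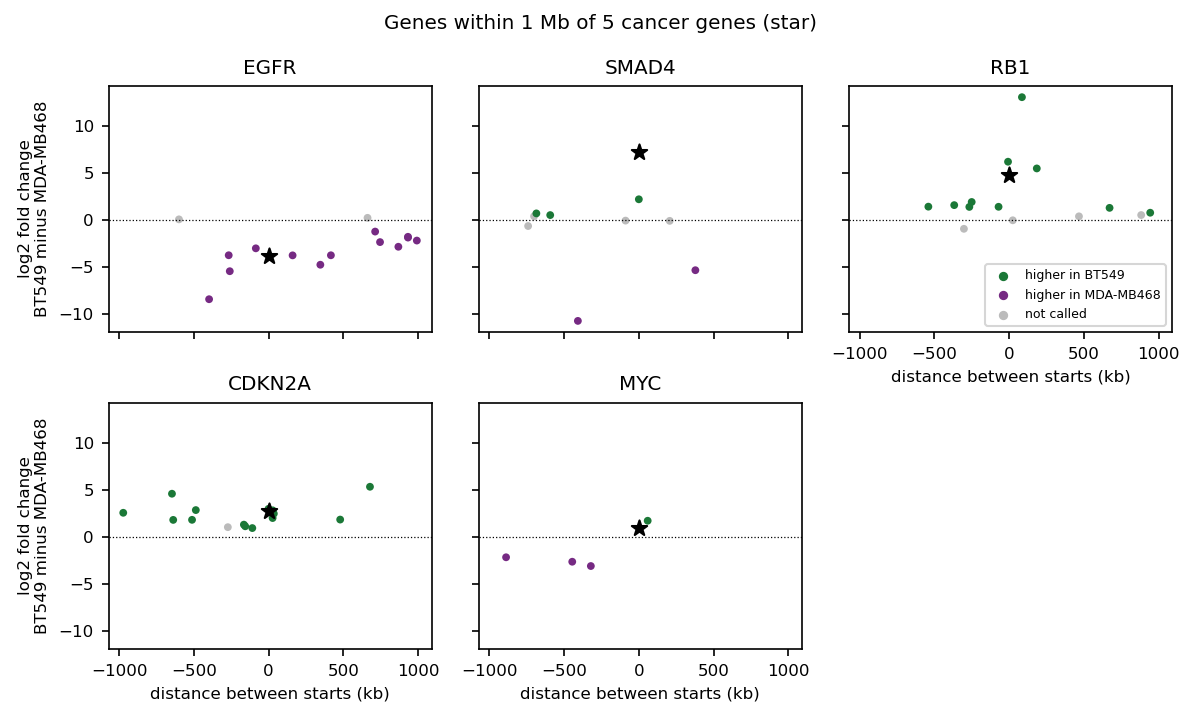
Log2 fold change, BT549 minus MDA-MB468, of the tested genes within 1 Mb of EGFR, SMAD4, RB1, CDKN2A and MYC (stars), by the distance between gene starts in kb; green points were called higher in BT549, purple points higher in MDA-MB468 and grey points were not called. Purple points surround EGFR and green points CDKN2A, while SMAD4 at 7.18 stands far above neighbours with a median of -0.10.

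Smaller groups differed in a less uniform way. Of 25 tested TGF-beta genes, 13 were higher in BT549 (52%) and 2 higher in MDA-MB468 (8%), with a median of 0.59. Over all genes these shares were 28.1% and 29%. The ligand TGFB1 was higher in BT549 (log2 fold change 1.82, SE 0.33, edgeR adjusted p = 0.0041) and TGFB2 higher in MDA-MB468, at 3.05, 1.95, 5.55 and 9.3 in BT549 and 16.2, 19.9, 62.6 and 41.8 in MDA-MB468 (log2 fold change -2.67, SE 0.30, edgeR adjusted p = 0.00063). HOX genes, which carry positional identity, gave 13 of 27 tested members higher in BT549 (48.1%) and 6 higher in MDA-MB468 (22.2%, median 1.13). The former included HOXB2, at 15.2, 13.3, 13.5 and 10.1 in BT549 and 0.209, 0.148, 0.0419 and 0.163 in MDA-MB468 (log2 fold change 6.79, SE 0.42, edgeR adjusted p = 7.5e-05) and HOXC8 (log2 fold change 4.79, SE 0.25, edgeR adjusted p = 4.7e-05). Only 5 of 23 cancer-testis genes, which are normally read in germ cells, could be tested. MAGEA12 was at 0.108, 4.73, 0.129 and 4.84 in BT549 and 82.4, 83.6, 85.2 and 94.3 in MDA-MB468 (log2 fold change -6.16, SE 1.28, edgeR adjusted p = 0.0072), MAGEA3 and MAGEA6, near-identical copies that are uncertain one by one, had -7.96 and -8.94, and PRAME was the member higher in BT549, at 5.29, 10.2, 3.34 and 3.61 in BT549 and 0.0108, 0.0179, 0 and 0.0111 in MDA-MB468 (log2 fold change 9.24, SE 0.43, edgeR adjusted p = 3.3e-05).

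TRPM4, a calcium-activated cation channel and the protein that the study ties to Acetalax, was at 3.05, 4.79, 2.18 and 3.11 FPKM in BT549 and 7.42, 9.11, 7.24 and 8.93 in MDA-MB468. The lines did not overlap, and TRPM4 was not among the large stable genes (log2 fold change -1.18, SE 0.18, edgeR adjusted p = 0.0022). Its call held under every alternative run. These are RNA levels, and the study reports that TRPM4 protein was almost undetectable in the CE cells of both lines. Of the 15 TRP channels tested, 7 were higher in BT549 (46.7%, against 28.1% of all genes) and 5 higher in MDA-MB468 (33.3%, near the 29% of all genes), with a median of 0.44 that turned to -0.03 without the CE control pair. TRPV6, an epithelial calcium channel, was at 0.00199, 0.00155, 0.00193 and 0 in BT549 and 5.91, 5.98, 4.2 and 4.73 in MDA-MB468 (log2 fold change -11.55, SE 0.36, edgeR adjusted p = 1.4e-05), and TRPM2, a channel opened by oxidative stress, had a log2 fold change of -6.25 ± 0.48 (SE), edgeR adjusted p = 0.00016. In the other direction TRPC4 was at 1.63, 1.56, 1.85 and 3.45 in BT549 with no count in MDA-MB468, at least 1101-fold, and TRPC1 had a log2 fold change of 3.89 ± 0.37 (SE), edgeR adjusted p = 0.00034. Among 16 tested genes of ion and volume transport, 5 were higher in BT549 (31.2%, near the 28.1% of all genes). In MDA-MB468 8 were higher (50%, against 29%), and the median was -0.74. SLC12A2, the sodium-potassium-chloride cotransporter, was at 5.41, 4.8, 4.93 and 5.46 in BT549 and 25.5, 13.5, 18.9 and 8.9 in MDA-MB468 (log2 fold change -1.41, SE 0.30, edgeR adjusted p = 0.0081), AQP3, a water and glycerol channel, at 0.0325, 0.0887, 0.197 and 0.0951 in BT549 and 8.12, 5.8, 11.8 and 8.49 in MDA-MB468 (log2 fold change -6.27, SE 0.41, edgeR adjusted p = 8.9e-05), and ATP1B1, a sodium pump subunit, at 4.04, 2.29, 6.38 and 3.9 in BT549 and 20.3, 8.84, 23.7 and 11.7 in MDA-MB468 (log2 fold change -1.75, SE 0.19, edgeR adjusted p = 0.00052).

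As a contrast, ribosomal proteins gave 24 of 63 members higher in BT549 (38.1%, against 28.1% of all genes) and 6 higher in MDA-MB468 (9.52%, against 29%) with a median of 0.18. When libraries were scaled by total counts alone the median was -0.01 with 17 members higher in each line, without the parental control pair 18 and 2 were called, and no member was large and stable. Imprinted genes gave 4 (33.3%) and 3 (25%) of 12, both near the shares of all genes (median 0.19, below 0 in 4 alternatives). Glutathione transferases gave 4 (33.3%) and 5 (41.7%) of 12 (median -0.37, 0.26 in the CE libraries alone). Hormone receptors gave 1 and 1 of 3 (33.3% each). Markers of cells that a culture of cancer cells should lack were also read. Of 14 blood and endothelial genes 5 were tested, and their summed FPKM was 0.57 to 1.69 in BT549 and 5.61 to 29.5 in MDA-MB468, most of it CD14, at 0.445, 0.873, 1.55 and 0.996 in BT549 and 28.6, 8.38, 12.4 and 3.84 in MDA-MB468, while PTPRC, the pan-leukocyte marker, was under 0.05 in all libraries. Of 4 adipocyte genes only PLIN1 was tested, at most 1.04 in any library. Their part in the results above was not tested.

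The line difference itself differed between CE and parental cells for some genes. A test of the line difference in CE against that in parental cells called 537 genes (3.01%; 271 without the parental control pair, 1218 without the block and 1439 with DESeq2), 410 (2.3%) with BT549 gaining on MDA-MB468 in CE cells and 127 (0.713%) with BT549 losing on it. Of these 537 genes the direction of the line difference was opposite in CE and parental cells for 181, BT549 had the larger shift between its parental and CE cells for 417, and 92 were among the 785 large stable genes, 11.7% of them. The labels name 1 CE derivative per line, so this test compares those cells. The same test for Acetalax against control called 0 genes (0%) by edgeR, with 774 at an unadjusted p under 0.05, while DESeq2 called 89. Its error term took in the change of the line difference between CE and parental cells. That change held 4.57% of the sum of squares, against 2.22% for the change of the line difference with Acetalax. The test therefore had little power, and its 0 calls do not show that the lines responded alike to Acetalax.

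Of 16 tested genes of MHC antigen presentation, 10 were called in the CE test, against 3.01% of all genes. Most of the list is the machinery that loads peptides on class I molecules, and a few members belong to class II. In each of the 10 BT549 gained on MDA-MB468, and the other 6 did not pass. HLA-B was at 0.466, 29, 0.527 and 34.2 FPKM in BT549 and 8.95, 14.3, 10 and 15.2 in MDA-MB468 (change of the line difference 5.51, SE 0.25, edgeR adjusted p = 0.00043). Parental BT549 thus lay below, and CE BT549 above, every MDA-MB468 library. HLA-C was at 24.9, 128, 25.7 and 137 in BT549 and 13.7, 17.7, 13.5 and 17.1 in MDA-MB468 (change of the line difference 2.19, SE 0.22, edgeR adjusted p = 0.0075), and B2M, the shared light chain, at 119.8, 518, 134 and 566 in BT549 and 121, 145, 127 and 128 in MDA-MB468 (change of the line difference 2.11, SE 0.23, edgeR adjusted p = 0.0096). HLA genes share sequence, so single members are uncertain. The peptide transporter TAP1 (2.01) and the immunoproteasome subunit PSMB9 (2.89) moved in the same direction. In the line test 3 members were called higher in each line, while in the parental libraries alone 2 were higher in BT549 and 7 in MDA-MB468, and in the CE libraries alone 10 and 3.

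The 5 genes with the largest changes in each direction were taken for their size, so their values are a description, and MMP2 is added as a member of the matrix list. TIMP3, an inhibitor of matrix proteases, was at 0.0206, 202, 0.03 and 189.6 FPKM in BT549 and 15.3, 3.12, 7.4 and 1.35 in MDA-MB468, higher in MDA-MB468 in parental cells and higher in BT549 in CE cells (change of the line difference 15.44, SE 0.67, edgeR adjusted p = 0.00043). MMP2, a gelatinase, was at 0, 7.64, 0.00489 and 6.5 in BT549 and 0.179, 1.25, 0.144 and 0.862 in MDA-MB468 (change of the line difference 8.66, SE 0.73, edgeR adjusted p = 0.0043). CHRDL1, a BMP antagonist, was at 0, 28.9, 0 and 26.2 in BT549 and 0.241, 0.0404, 0.189 and 0.0697 in MDA-MB468. ZNF711 was at 0.962, 0, 0.677 and 0 in MDA-MB468 and 0.0141, 0.862, 0 and 0.368 in BT549, and CNKSR2, a scaffold protein, was under 0.1 in all libraries with none in both CE libraries of MDA-MB468. IGFBP5, which binds insulin-like growth factors, was at 0, 0.858, 0 and 0.443 in BT549 and 49.6, 21.1, 57.6 and 11.6 in MDA-MB468, higher in MDA-MB468 throughout but less so in CE cells. Where a line was at 0, the fitted size is not a bound.

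The largest losses of BT549 relative to MDA-MB468 in CE cells were in PGM5, at 0.936, 0.0119, 1.14 and 0.0154 in BT549 and 0.016, 0.0675, 0.0214 and 0.161 in MDA-MB468 FPKM, MARCHF4, at 6.6, 0.677, 5.58 and 1.12 in BT549 and 0, 0.0601, 0.0126 and 0.176 in MDA-MB468, C4orf19, at 0.582, 0.0206, 0.252 and 0.00885 in BT549 and 0.0782, 0.375, 0.0783 and 0.254 in MDA-MB468, TSPAN2, at 1.27, 0.0216, 0.903 and 0.0232 in BT549 and 1.47, 1.98, 4.37 and 5.38 in MDA-MB468, and ANO1, at 1.7, 0.0294, 1.28 and 0.0379 in BT549 and 21.1, 27.5, 19.9 and 27.9 in MDA-MB468. The lines overlapped for PGM5 and C4orf19 and were apart for the other genes. ANO1 is a calcium-activated chloride channel, and it was higher in MDA-MB468 in every condition (log2 fold change -6.09, SE 1.38, edgeR adjusted p = 0.01 for the line). PGM5 and MARCHF4 were lower in the CE than in the parental libraries of BT549. GSTP1, a glutathione transferase, moved in the other line: it was at 109, 158, 114 and 156 in BT549 and 55.3, 5.17, 46.5 and 4.42 in MDA-MB468 (change of the line difference 4.06, SE 0.25, edgeR adjusted p = 0.0013), and its call in the line test was lost in the control libraries and without either CE pair. Large stable genes were among those called. KRT8 (change of the line difference 4.25, SE 0.36, edgeR adjusted p = 0.0046) and KRT19 (change of the line difference 2.26, SE 0.36, edgeR adjusted p = 0.031) had a smaller gap in CE cells, and TWIST1 had a wider one (change of the line difference 4.31, SE 0.47, edgeR adjusted p = 0.0096).

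**Figure D4:**
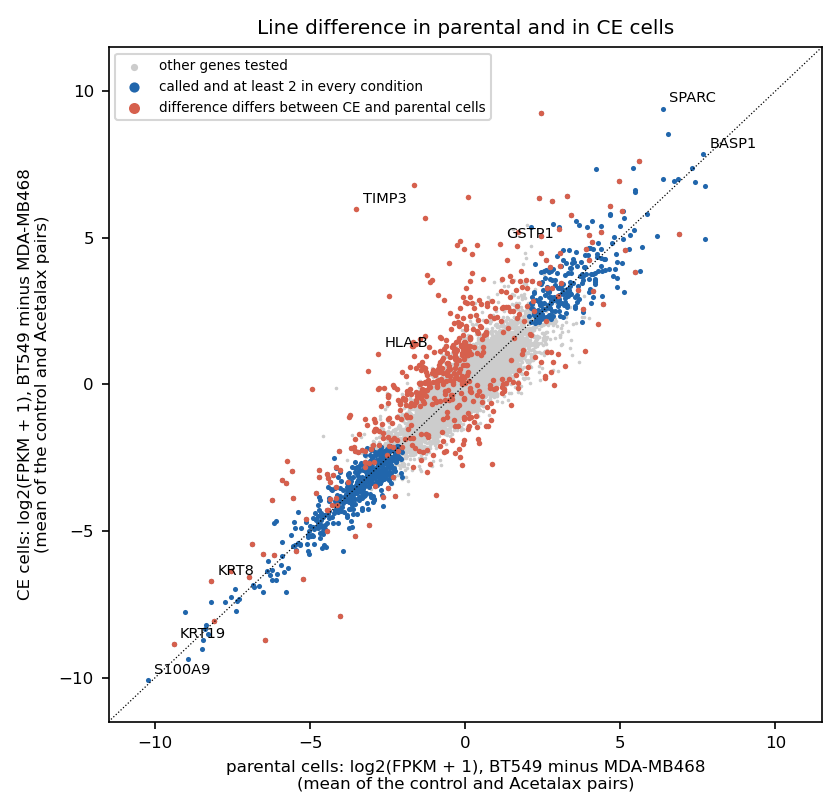
Line difference in log2(FPKM + 1), BT549 minus MDA-MB468, in parental cells (horizontal axis) and CE cells (vertical axis), each the mean of the control and Acetalax pairs, for the genes tested; blue marks the 785 large stable genes and red the 537 genes whose difference differs between CE and parental cells, with red drawn on top. Blue points follow the dotted line of equal differences, and most red points, such as TIMP3 and HLA-B, lie above it.

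**Figure D5:**
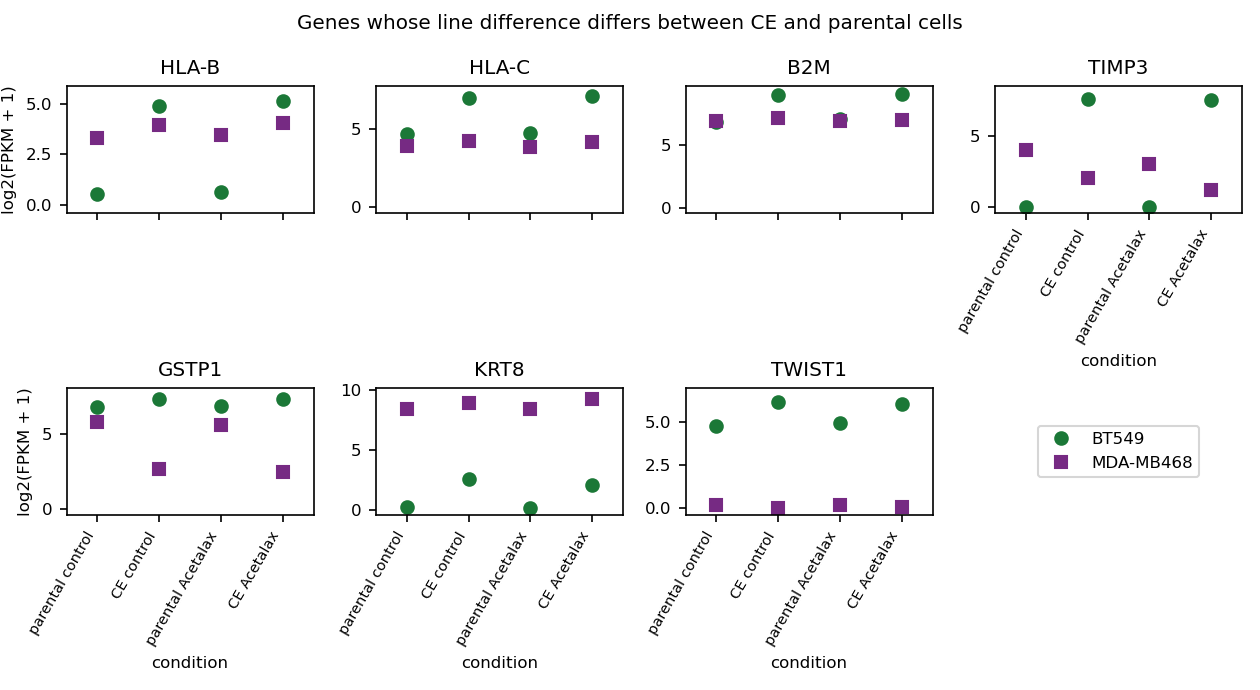
Log2(FPKM + 1) of 7 genes in each library by condition, green circles for BT549 and purple squares for MDA-MB468, 1 library per point. HLA-B and TIMP3 are higher in MDA-MB468 in parental cells and higher in BT549 in CE cells, GSTP1 is low in the CE libraries of MDA-MB468, and KRT8 and TWIST1 keep their order in all 4 conditions.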

How the data were processed

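RNA-seq libraries of BT549 and MDA-MB468 cells, 1 per condition, were compared by line. The authors aligned the reads of polyA libraries to hg19 with STAR (2.7.11b in the submitters' processing notes) and deposited raw counts per gene from its GeneCounts option; the annotation and strand column are not given in the sources used here. The deposited gene length is the span on the genome and was not used. Of 58154 rows, 2475 repeats of an identifier were left out (3 identifiers had repeats with other counts), which left 55679 genes. FPKM was computed from the counts with merged exon lengths of GENCODE on hg19, which 4 tested genes lacked, and log2 was taken after adding 1. edgeR 4.0.16 (R 4.3.3, TMM, filterByExpr, quasi-likelihood test, Benjamini-Hochberg over all 17811 genes tested) was fitted with the condition as a block and the line, with 3 residual degrees of freedom for the line and 2 for the interactions. The pairing by condition is the design's own. No library was a copy of another (chi-square per degree of freedom at least 39.5 for libraries of 1 line). Floors on genes with 0 counts cover counting error only.

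On simulated counts with 200 changed genes, edgeR called 92.8% of 2-fold and 98.9% of 4-fold line differences. It called 32% and 87.9% of those between CE and parental cells, and 25.5% and 81.6% of those between Acetalax and control. The simulated dispersion was well below the 0.097 of the data, so these shares are likely too high for these data. Genes named are members of 23 lists (481 entries, 3 unmatched), the 15 most stable genes per direction, the 5 largest changes per direction in the interaction tests and neighbours within 1 Mb; the miR-200 loci and TTC7A and CRIP2 are outside this rule. Some genes are not reported here by name, though counts over lists include them. Members and lists were chosen with earlier results of these data known. Alternatives were other scalings, filters, DESeq2 1.42.0, the fit without the block, subsets of conditions and each pair left out; the closing section gives their effect.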

Additional observations from a re-analysis of the deposited data

Results flagged for a closer look

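The line difference differed between CE and parental cells, by the test of the difference itself, for 537 genes. The values below are the change of the log2 fold change (BT549 minus MDA-MB468) from parental to CE cells. MHC genes had 5.51 for HLA-B, 2.19 for HLA-C, 1.65 for HLA-E, 7.45 for HLA-F, 2.11 for B2M, 2.01 for TAP1, 1.37 for TAPBP, 2.00 for PSMB8 and 2.89 for PSMB9. Among epithelial genes the change was 4.25 for KRT8, 2.26 for KRT19, 1.96 for DSP, 3.52 for CASP14 and -3.68 for KRT81. Among mesenchymal and matrix genes it was 4.31 for TWIST1, 2.98 for LOX, 3.15 for FBLN2, 3.12 for SERPINH1 and 8.66 for MMP2. For the glutathione enzymes GSTP1 and MGST1 it was 4.06 and 4.58, for the imprinted genes MEST and PEG10 3.66 and 2.20, and for MAGEA3, MAGEA6 and MAGEA12 3.87, 3.47 and 5.39. The largest gains were 17.47 for CHRDL1, 17.03 for ZNF711, 15.44 for TIMP3, 13.91 for CNKSR2 and 12.54 for IGFBP5, and the largest losses -8.57 for PGM5, -6.61 for MARCHF4, -6.54 for C4orf19, -5.79 for TSPAN2 and -5.72 for ANO1. Genes at or near 0 in a line have fitted sizes that depend on the prior count and are no bounds.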

How the results depend on the processing

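The median log2 fold change kept its sign under every alternative for the 4 epithelial lists and for EMT factors, mesenchymal markers, collagens and matrix genes; the medians of blood and endothelial genes and of adipocyte genes turned above 0 when every gene with at least 1 count was kept, and 0 of the 10167 calls turned round. Some alternatives moved counts by over 1.5 times as follows. With the control libraries only, 6731 genes were called, 1 MHC member and 11 ribosomal proteins were higher in BT549. Large stable genes numbered 2076 with a pseudocount of 0.1, 1546 with CPM in place of FPKM and 2328 with a threshold of 1. The test of CE against parental cells called 1768 genes when every gene with at least 1 count was kept, 1439 with DESeq2 and 1218 with no replicate block, and from 271 (without the parental control pair) to 551 with 1 pair left out. The test of Acetalax called 89 genes with DESeq2, 0 by edgeR under the other settings. EGFR ligands higher in MDA-MB468 numbered 6 with every gene kept and with the CE libraries only, and 3 to 6 with a pair left out; hormone receptors higher in BT549 numbered 2 with every gene kept. MHC members higher in BT549 numbered 5 with no replicate block and 10 in the CE libraries only. The line took 84.3% of the sum of squares with log2(CPM + 1) and 83.2% with a mean of at least 5 CPM. Scaling by total counts alone shifted the median log2 fold change of all genes by -0.19 and called 4080 genes higher in BT549 and 5925 higher in MDA-MB468; values of the report are relative to TMM. With no replicate block 10224 genes differed between the lines, and 9672 of the 10167 calls were kept in direction; with 1 pair left out 8550 to 9310 genes were called. The condition pairs the libraries by design, so the block stands in the values of the report. Depth limits genes near 0, where a fold change against 0 counts is given as a bound.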
